A study of Caenorhabditis elegans with 80 samples.

Results

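Whole nematodes exposed for 8 h to the highest acrylamide dose of the study, 1000 mg/L, were compared with unexposed worms collected at the same time. The comparison used 6 of the 80 arrays of the series, selected by their titles: 3 of exposed worms and 3 of controls. The animals were Caenorhabditis elegans of no stated strain or genotype, hatched from bleached embryos, arrested as first-stage larvae and then raised in an axenic liquid medium (CeHR) until mid L4, the larval stage before adulthood. Acrylamide was then added to the medium of the exposed worms, and the controls received none. Polyadenylated RNA of pulverised whole worms was amplified, labelled with biotin and hybridised, 1 array per sample. The same acrylamide series also held doses of 100 mg/L (low) and 500 mg/L (mid), a collection at 4 h and controls at 0 h and 4 h, each with n = 3 arrays. The labels do not say whether the replicates came from separate cultures. The p values here thus reflect only how the arrays of the acrylamide series varied, part of which could be technical.

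Acrylamide is an electrophile that binds thiols, and in animals it is removed largely by conjugation to glutathione. In C. elegans the transcription factor SKN-1, the counterpart of the mammalian Nrf proteins, answers electrophiles by inducing glutathione S-transferases and enzymes of glutathione synthesis, while the adaptor WDR-23 normally marks SKN-1 for degradation. Over the same hours of late larval life the germline begins to make oocytes and the intestine begins to secrete vitellogenins, the yolk proteins.

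Signals below are MAS5 signals after every array was centred on a median of 202.9. Log2 changes (with standard errors, SE) are differences of log2(signal + 51) between 3 exposed and 3 control arrays. Their SE and p values rest on a spread pooled over the 9 groups of the acrylamide series, 27 arrays. Before centring, the median signal of the 6 arrays differed by at most 1.26-fold. The log2 ratio of 3' to 5' actin probe sets, a measure of RNA integrity and labelling, was 1.05, 0.864 and 0.995 in the controls and 1.13, 1.34 and 1.46 in the exposed arrays, so the groups did not overlap. The corresponding GAPDH ratio did overlap, at 0.0154 to 0.142 in controls and -0.297 to 0.225 in exposed arrays. Replicate 3 of the 4 h control stood apart from its group. Its signals summed over 21 SKN-1 target genes came to 27276, against 14818 and 13378 in the other arrays of that group, whereas the 8 h controls lay between 11615 and 11704. It did not enter the 8 h contrast itself.

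The high dose changed about as many genes upwards as downwards. Of 12516 genes tested, 553 were higher (4.42%) and 581 lower (4.64%) at an adjusted p under 0.05 (limma with Benjamini-Hochberg adjustment over all 16542 probe sets tested). The increases were the larger ones: 381 genes rose and 330 fell at least 2-fold, while 35 rose and 6 fell at least 10-fold. The median log2 change over all genes tested was -0.06. At the level of probe sets, 687 were higher and 763 lower. That split depended on scaling: with the authors' scaling kept it was 620 to 362, or 1049 to 738 when the low-scale array at 0 h was also left out. With the actin ratio as a covariate it was 550 to 502. Without replicate 1 of the 8 h control 490 probe sets were higher and 451 lower, and without replicate 2 of the high dose 450 and 522. The low dose at 8 h called 0.384% of genes higher and 0.00799% lower, and the mid dose 2.09% and 0.487%. All 3 doses were set against the same 8 h control.

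**Figure D1:**
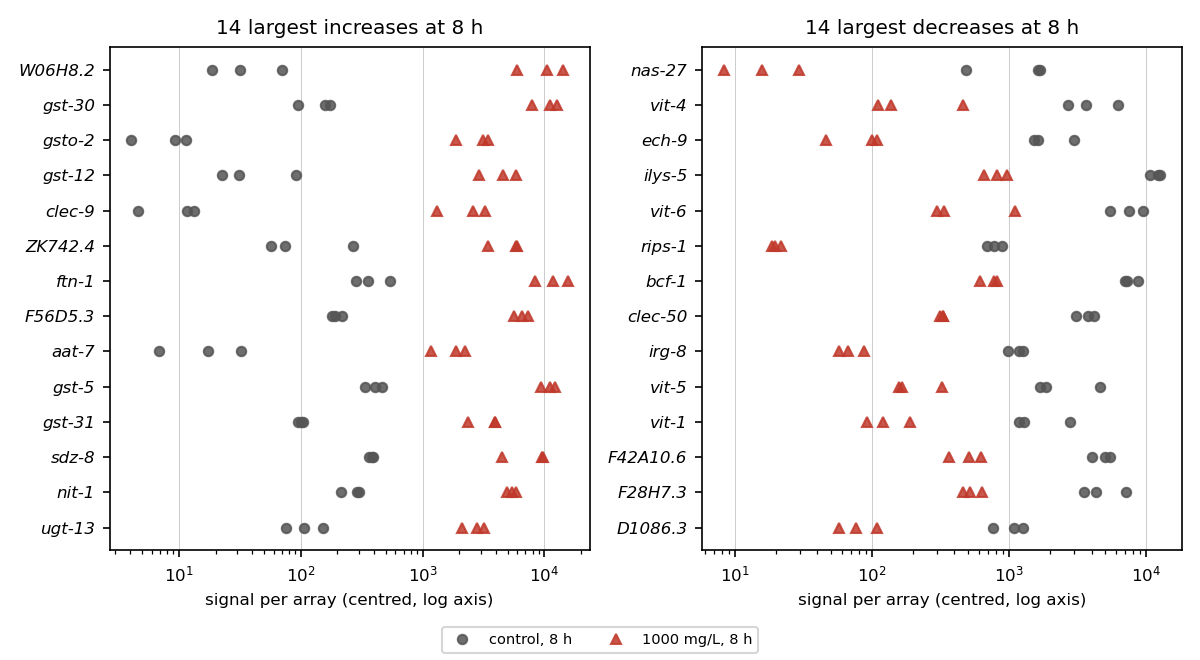
Signal per array (centred, log axis) of the 14 genes with the largest increase (left) and the 14 with the largest decrease (right) at 8 h. Grey circles are the 3 control arrays and red triangles the 3 arrays at 1000 mg/L. The groups are separate for every gene shown, since the naming rule required it, and W06H8.2 leads the left panel, ordered by the change with the pseudocount, going from at most 70.8 to at least 5958 (without the pseudocount gsto-2 is ahead, at 8.49 against 8.11).

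Genes known as SKN-1 targets were among the largest increases. Of the 21 tested, 20 rose and 0 fell, with a median log2 change of 3.71. This list, like the others below, was drawn up with earlier results of these data known, so such shares are a description. W06H8.2, a gene listed here only as a SKN-1 target, gave signals of 18.5, 70.8 and 31.6 in the controls and 5958, 14143 and 10443 in the exposed arrays. The lowest exposed value was thus far above the highest control. The log2 change of W06H8.2 was 6.76 (SE 0.58, adjusted p = 7.8e-09). Signals of nit-1, a nitrilase-family gene, were 290, 215 and 299 in controls and 4985, 5419 and 5910 after exposure. Both groups of nit-1 were tight, and its log2 change was 4.11 (SE 0.24), with an adjusted p of 2.8e-11. Other targets included sdz-8 at 4.13 and the glucuronosyltransferase gene ugt-13 at 4.09, and 10 of the 20 that rose were glutathione S-transferase genes. The methionine sulfoxide reductase gene msra-1, which repairs oxidised methionine, stood at 996, 1003 and 956 in controls and at 13361, 15188 and 12118 in exposed worms. Its change was 3.71 (SE 0.34, adjusted p = 2.3e-08). The 1 member that did not pass, K05B2.4, was dim throughout, with 54.4, 96.6 and 69.8 in controls against 29.1, 58.5 and 15.8.

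Of the regulators of the pathway, 1 was called. Among 15 genes tested that control SKN-1, 1 rose and 0 fell. That gene was wdr-23, whose product marks SKN-1 for degradation, at 980, 819 and 996 in controls and 5876, 8967 and 7184 in exposed worms. The log2 change of wdr-23 was 2.90 (SE 0.23, adjusted p = 2.1e-09). The skn-1 transcript gave 642, 850 and 735 against 923, 701 and 968, and these ranges overlapped. Its log2 change was 0.20 (SE 0.20, adjusted p = 0.64). The kinase genes pmk-1 and sek-1, which act upstream of SKN-1, had log2 changes of 0.41 and -0.22 and did not pass.

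Glutathione S-transferases, the enzymes that join glutathione to electrophiles, moved in both directions within the family. Of 40 tested, 22 rose and 6 fell, and the median was 1.59. The largest change with the pseudocount was that of gst-30, with 174, 95.8 and 159 in controls and 7921, 12726 and 11169 in exposed arrays. Its log2 change was 5.78 (SE 0.57, adjusted p = 8.9e-08). The omega-class gene gsto-2 was close to the bottom of the signal range in controls, at 11.4, 4.08 and 9.37, and reached 1899, 3470 and 3110. With the pseudocount the change of gsto-2 was 5.56 (SE 0.33, adjusted p = 3.3e-11), and without it 8.49, above the 6.73 of gst-12 and the 6.23 of gst-30, so both the size and the order of such increases depend on the pseudocount. The same applied to aat-7, an amino acid transporter gene that changed by 4.67 with the pseudocount and 6.76 without. The reporter gene gst-4 started much higher, at 2748, 2537 and 2105, and rose to 13189, 14173 and 15388. That is a log2 change of 2.51 (SE 0.26, adjusted p = 1.7e-07). In the opposite direction gst-26 went from 864, 814 and 945 to 145, 171 and 211, a change of -2.04 (SE 0.30, adjusted p = 3.7e-05). With it fell gst-27 (-1.63), the kappa-class gene gstk-1 (-1.59), gst-28 (-1.45), gst-42 and gst-36 (both -0.91).

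**Figure D2:**
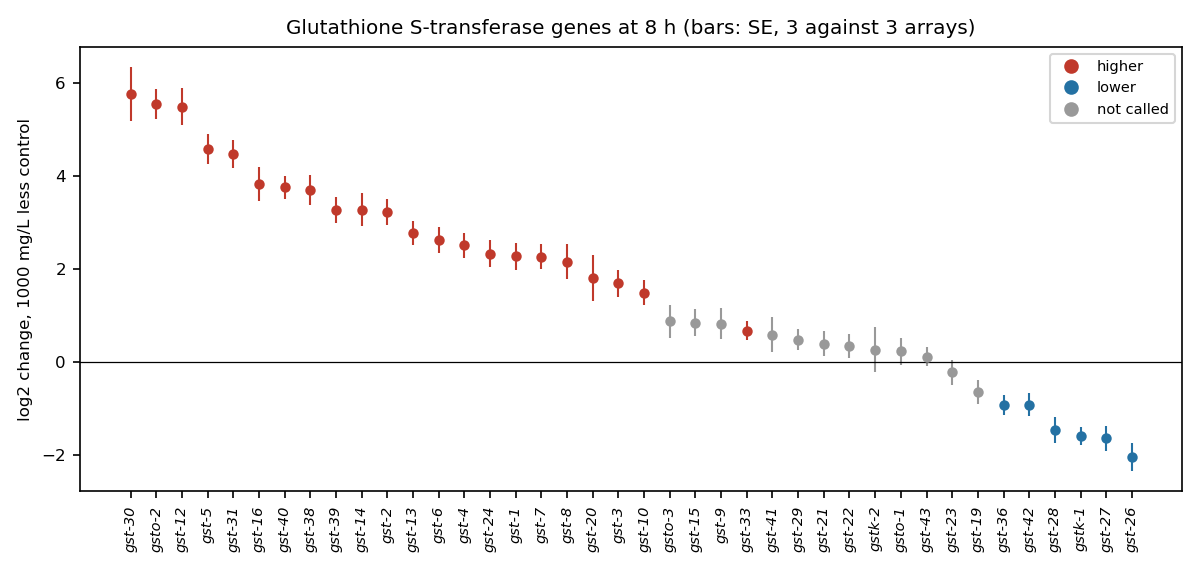
Log2 change at 1000 mg/L against control at 8 h for each of the 40 glutathione S-transferase genes tested (3 against 3 arrays). Bars are 1 SE, from a spread pooled over all 27 acrylamide arrays. Red marks the 22 called higher, blue the 6 called lower and grey those not called; the values run from 5.78 for gst-30 to -2.04 for gst-26.

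The genes that make and recycle glutathione rose with the transferases. Of 18 genes of glutathione and cysteine metabolism, 7 rose and 0 fell. The gene of the rate-limiting enzyme, gcs-1, stood at 528, 636 and 447 in controls and 1879, 1709 and 2771 in exposed worms (log2 change 1.86, SE 0.22, adjusted p = 1.7e-06). Glutathione synthetase, gss-1, rose by 1.55 and glutathione reductase, gsr-1, by 2.17. The glutaredoxin gene glrx-10 rose by 2.5, the cystathionine lyase genes cbl-1 and cth-2 by 2.21 and 1.34, and the S-adenosylmethionine synthetase gene sams-1 by 1.04. The genes cbs-1 and cth-1, which also act in the route to cysteine, had changes of -0.70 and -0.10 and were not called. Of 12 genes of the pentose phosphate pathway and NADPH supply, 2 rose and 1 fell (16.7% and 8.33%, against 4.42% and 4.64% of all genes). The gene gspd-1 rose by 1.39, but 9 of the 12 changes were negative, with a median of -0.18.

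Other detoxification families contributed smaller shares. Glucuronosyltransferases, which attach sugars to small molecules, had 18 of 55 tested genes higher and 2 lower (median 0.54). After ugt-13 the largest were ugt-2 (2.15), ugt-66 (2.14) and ugt-11 (2.05). Of 39 cytochromes P450, the oxidases of the first detoxification step, 8 rose and 1 fell. The P450 gene cyp-34A9 went from 41.9, 139 and 128 to 701, 1459 and 1584 (log2 change 3.07, SE 0.32, adjusted p = 1.7e-07). Short-chain dehydrogenases had 6 of 29 higher and 1 lower, led by stdh-2 at 3.33 and dhs-9 at 3.14. Controls of stdh-2 read only 2.80 to 4.52, and its change without the pseudocount was 7.10. The filter admitted a probe set through any 3 acrylamide arrays above 131, exposed ones included. Genes this dim in controls, such as gsto-2 and clec-9, could thus be called higher but hardly lower. They count in the shares called higher, also in that over all genes. Of 41 ABC transporters, 8 rose (5 with the authors' scaling, with the actin covariate or without replicate 1 or 2 of the control or replicate 2 or 3 of the high dose) and 1 fell, and the highest were mrp-1 (2.16), hmt-1 (1.81), mrp-7 (1.64) and mrp-2 (1.44). For mrp-1, a transporter of the class that exports glutathione conjugates, controls gave 856, 945 and 936 and exposed worms 3919, 4354 and 4455.

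A minority of antioxidant enzyme genes rose. Of 21 thioredoxin, peroxidase and dismutase genes, 4 rose and 0 fell: msra-1, the glutathione peroxidases gpx-1 (1.43) and gpx-2 (0.89), and the extracellular superoxide dismutase sod-4 (1.29). The mitochondrial dismutase gene sod-3, a common stress reporter, had overlapping ranges of 86.3 to 270 in controls and 94.2 to 152 in exposed worms. Its log2 change was -0.13 (adjusted p = 0.86).

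Iron, heme and cadmium-response genes moved in both directions within their lists. Of 15 iron and heme genes 4 rose and 1 fell, and of 8 metallothionein and cadmium-response genes 3 rose and 2 fell. Of 16 zinc transport genes 0 rose and 1, ttm-1, fell (6.25%, against 4.64% of all genes). That call was lost with the authors' scaling (adjusted p = 0.378) and quantile normalization (adjusted p = 0.0664). The change of ttm-1 was -0.56, and its other probe sets gave -0.35 (adjusted p = 0.434) and -0.89 (adjusted p = 0.0162). The ferritin gene ftn-1, whose product stores iron, went from 544, 360 and 282 to 8330, 15604 and 11753. This was a log2 change of 4.74 (SE 0.38, adjusted p = 2.4e-09). The heme-responsive genes hrg-3, hrg-9 and hrg-10 rose by 2.1, 1.48 and 1.27, and the iron exporter gene fpn-1.2 fell by 1.5. Both metallothioneins, small cysteine-rich proteins that bind metals, fell. For mtl-1 the controls gave 1980, 2668 and 2035 and the exposed arrays 403, 1079 and 699 (log2 change -1.63, SE 0.37, adjusted p = 0.0046). For mtl-2 they gave 3047, 2563 and 3321 against 543, 1962 and 776 (-1.60, SE 0.39, adjusted p = 0.0092). With the actin covariate mtl-2 no longer passed (adjusted p = 0.074), nor when high-dose replicate 1 was left out (adjusted p = 0.0737). The cadmium-responsive gene cdr-4 rose by 3.05 and cdr-2 by 1.72.

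In the lists of chaperones and protein degradation at most 4.76% of genes were called higher, near the 4.42% of all genes. Of 16 cytosolic heat shock genes, 0 rose and 1, hsp-12.1, fell by 0.91 (6.25%, against 4.64% of all genes). The inducible small heat shock gene hsp-16.2 read 56, 96.0 and 69.0 in controls and 130, 99.7 and 74.1 in exposed worms, with overlapping ranges and a log2 change of 0.28 (adjusted p = 0.76). Of 33 proteasome subunits 0 rose and 1, rpn-6.2, fell (3.03%, against 4.64% of all genes). That call was lost with the authors' scaling, with the actin covariate and without any single one of the 6 arrays. In the unfolded protein response of the endoplasmic reticulum, 1 of 21 genes rose and 2 fell (4.76% and 9.52%, against 4.42% and 4.64% of all genes). The riser was atf-4, a transcription factor of the integrated stress response, at 734, 882 and 1288 in controls and 1787, 4302 and 4244 in exposed worms (1.71, SE 0.35, adjusted p = 0.002). The lumenal chaperone genes hsp-3 and hsp-4 fell by 1.00 and 0.72. The call of hsp-3 was lost under the authors' scaling (adjusted p = 0.0828), and that of hsp-4 under 8 of 18 alternative settings. The mitochondrial chaperonin gene hsp-60 fell by 1.04, a call also lost under the authors' scaling (adjusted p = 0.0504).

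**Figure D3:**
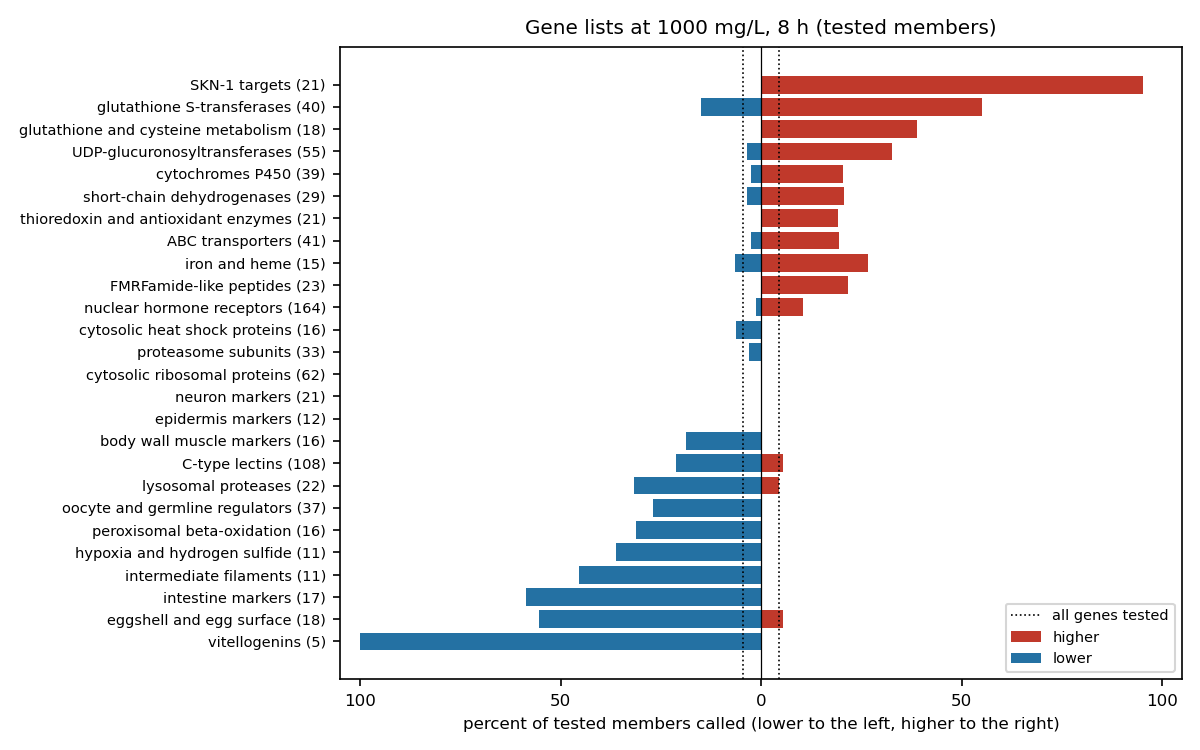
Percent of tested members called higher (red, to the right) or lower (blue, to the left) at 1000 mg/L against control at 8 h, for a selection of the gene lists. Lists not drawn include some with 0 genes called, such as the 49 genes of sperm and spermatogenesis. The number tested stands beside each name and the dotted lines mark the shares over all genes tested, 4.42% higher and 4.64% lower. SKN-1 targets reach furthest to the right (20 of 21) and vitellogenins to the left (5 of 5). The lists were drawn up with earlier results of these data known.

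Many transcripts of the intestine were lower. Of 17 intestinal marker genes, 0 rose and 10 fell, with a median of -0.90. The count was 6 with the authors' scaling, with the actin covariate or without replicate 3 of the control. The actin gene act-5, which builds the microvilli of gut cells, stood at 6075, 5490 and 5355 in controls and at 933, 960 and 810 in exposed worms. Its log2 change was -2.58 (SE 0.23, adjusted p = 1.4e-08). The ion exchanger gene nhx-2 fell by 1.76, the proton pump subunit gene vha-6 by 1.32 and the peptide transporter gene pept-1 by 0.90. The genes mtl-2, cpr-1 and ifb-2 count both here and in the lists of metal, protease and filament genes. Not all gut genes fell. The identity factor elt-2 gave 486, 380 and 507 in controls and 557, 724 and 651 in exposed worms (log2 change 0.45, adjusted p = 0.19). The gut esterase gene ges-1 read 422, 413 and 470 against 437, 510 and 751 (0.31, adjusted p = 0.51). Because RNA came from whole animals, fewer cells of a type and less RNA per cell cannot be told apart here or in the other tissues below.

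The filaments under the microvilli fell as well. Of 11 intermediate filament genes tested, 0 rose and 5 fell (3 without replicate 3 of the control). The gene ifc-1 went from 1393, 948 and 1316 to 129, 108 and 119, a change of -2.89 (SE 0.27, adjusted p = 3.2e-08). The others were ifp-1 (-2.09), ifd-2 (-1.54), ifd-1 (-1.41) and ifb-2 (-1.38). The epidermal filament genes ifb-1 and mua-6, at -0.37 and -0.18, and the nuclear lamin gene lmn-1, at -0.33, were not called.

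Secreted digestive and defence proteins showed decreases beside a few steep increases. Among 25 lysozymes and saposin-like proteins, 7 fell and 3 rose. The invertebrate lysozyme gene ilys-5 stood at 12142, 10739 and 12677 in controls and gave 814, 662 and 971 after exposure (log2 change -3.79, SE 0.25, adjusted p = 1.6e-10). Its relatives ilys-2 and ilys-3 rose by 3.61 and 2.83, the first from 90.9, 120 and 157 to 1708, 1948 and 2551. Lysosomal proteases had 7 of 22 lower and 1 higher, the decreases including the cathepsin B-like genes cpr-5 (-2.54) and cpr-9 (-1.88) and the aspartic protease asp-12 (-1.92). Without replicate 1 of the high dose 4 were called lower. Of 108 C-type lectins, a large family of sugar-binding proteins, 23 fell and 6 rose. The lectin-like gene clec-50 changed by -3.30 and clec-4 by -2.90. In contrast clec-9 went from 13.2, 11.6 and 4.59 to 1310, 3285 and 2602, a change of 5.24 (SE 0.45, adjusted p = 7.1e-09). The number of lectins lower was 14 with the authors' scaling, 15 without replicate 2 of the high dose and 28 with replicate number as a block.

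Lists of fat and sugar metabolism held calls in both directions. Of 42 genes of mitochondrial fat oxidation and acyl-CoA synthesis 4 rose and 4 fell, with a median of -0.12. Of 16 peroxisomal beta-oxidation genes 0 rose and 5 fell, led by the enoyl-CoA hydratase-like gene ech-9. Its controls read 2990, 1632 and 1530 and its exposed arrays 99.7, 45.9 and 110, a change of -3.92 (SE 0.40, adjusted p = 1.3e-07). The acyl-CoA oxidase genes acox-1.2, acox-1.5 and acox-3 fell by 1.74, 1.59 and 1.02. The count of 5 was 3 with the actin covariate and without replicate 2 or replicate 3 of the control. Among 25 lysosomal lipases and fatty acid binding proteins, 6 fell and 2 rose: the lipases lipl-1, lipl-5 and lipl-2 fell by 2.49, 2.38 and 1.96, while lipl-4 rose by 2.2 and the binding protein gene far-3 by 3.13. The elongase genes elo-2, elo-5 and elo-6, which lengthen fatty acids, fell by 1.69, 1.62 and 0.88. The gluconeogenic gene pck-1 went from 1422, 1333 and 1633 to 120, 287 and 232 (-2.57, SE 0.32, adjusted p = 3e-06). In the same list of 21 central carbon genes 5 fell in all, 1 with the authors' scaling, and 2 or 3 with the actin covariate or without any single array other than replicate 3 of the high dose. The glyoxylate cycle gene icl-1 rose by 1.69.

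Of 11 genes tested of the hypoxia and hydrogen sulfide response, 0 rose and 4 fell. The gene rips-1 gave 883, 688 and 777 in controls and 18.8, 21.8 and 19.6 in exposed worms, which lie below the pseudocount. Its change was -3.55 with the pseudocount (SE 0.19, adjusted p = 1.8e-11) and -5.28 without. The sulfide oxidase gene sqrd-1 fell by 2.61, cysl-3 by 1.51 and rhy-1 by 0.94. The largest decrease of any called gene was that of nas-27, an astacin metalloprotease gene, with 486, 1629 and 1670 in controls and 15.8, 8.29 and 29.5 in exposed arrays. It changed by -4.08 (SE 0.51, adjusted p = 3.3e-06), and by -6.13 without the pseudocount. Probe sets whose suffix marks possible cross-hybridization read several genes described here, among them wdr-23, glrx-10, gss-1, cth-2, ftn-1, mtl-2, cdr-4, mrp-1, mrp-2, mrp-7, hmt-1, dhs-9, far-3, atf-4, hsp-3, hsp-4, hsp-60, act-5, vha-6, ges-1, bcf-1, ilys-5, clec-50, cpr-5, pck-1, icl-1, elo-5, elo-6, acox-3, acox-1.5, vit-4, vit-5, cpg-9, oma-1, flp-18, gst-27, ifp-1, ifd-2, ifb-2, lmn-1, mua-6, mup-2, pat-10 and cysl-3.

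All 5 vitellogenin genes measured were lower. The log2 changes were -4.0 for vit-4, -3.77 for vit-6, -3.28 for vit-5, -3.22 for vit-1 and -2.59 for vit-2. For vit-4 controls gave 6194, 2702 and 3659 and exposed worms 459, 110 and 138 (SE 0.60, adjusted p = 4.1e-05). For vit-2 they gave 3637, 1731 and 2539 against 725, 206 and 339 (SE 0.78, adjusted p = 0.036), and this call was lost under 8 of 18 alternative settings. The control level of these genes was itself moving. Summed over the 5 genes, control arrays read 446 to 466 at 0 h, 806 to 7256 at 4 h and 12874 to 26698 at 8 h. The arrays at 1000 mg/L read 536 to 1176 at 4 h and 901 to 2801 at 8 h. The exposed sums at 8 h thus lay below every 8 h control. The upper end of the 4 h controls came from replicate 1 alone, and the other arrays of that group read 1059 and 806. Between 4 h and 8 h, 0.136% of genes rose and 0.0879% fell in the controls, and vit-1, vit-4 and vit-5 were among those that rose. The array labelled replicate 1 had the highest sum in all 4 groups at 8 h.

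**Figure D4:**
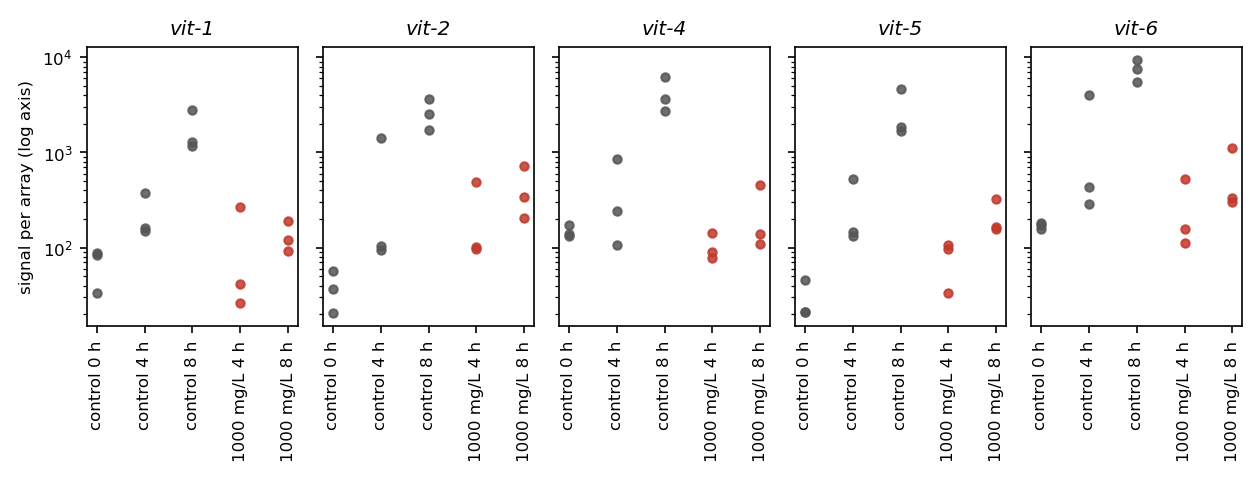
Signal per array (log axis) of the 5 vitellogenin genes in controls at 0, 4 and 8 h (grey) and at 1000 mg/L at 4 and 8 h (red), 3 arrays per column. Controls climb to between 1184 and 9448 at 8 h, while the exposed arrays at 8 h lie between 92.1 and 1102.

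Transcripts of oocytes and eggshell were also lower, and their calls depended on single arrays. Of 18 eggshell and egg surface genes, 10 fell and 1 rose, with a median of -1.27. The chitin synthase gene chs-1, which makes the eggshell chitin, gave 855, 445 and 533 in controls and 193, 16.7 and 29.97 in exposed worms (-2.54, SE 0.49, adjusted p = 0.001). The yolk receptor gene rme-2 fell by 1.38 (adjusted p = 0.038). Without replicate 1 of the control, or replicate 2 of the high dose, 2 of the 18 were called lower, and 3 without replicate 3 of the high dose. With the actin covariate or without replicate 3 of the control the count was 5. It rose to 12 with only the compared groups fitted or with replicate number as a block. Of 37 oocyte and germline regulators 10 fell and 0 rose, including the RNA-binding protein genes pos-1 (-1.78), oma-2 (-1.49) and oma-1 (-1.44). This count was 0 without replicate 1 of the control, 1 without replicate 2 of the high dose and 3 with the authors' scaling. It was 4 with the actin covariate or without replicate 3 of the control and 6 without replicate 3 of the high dose. Other settings raised it, to 14 with quantile normalization, 15 with only the compared groups fitted and 19 with replicate number as a block. The gene cpg-9 read 1836, 2397 and 2054 in controls at 8 h and 482, 607 and 737 after exposure, and it was called in each of the 18 alternative settings (-1.71, SE 0.24, adjusted p = 1.7e-05). Of 49 genes of sperm and spermatogenesis 0 rose and 0 fell, with a median of -0.40. Of 41 genes of replication and the cell cycle 5 fell, or 1 with the authors' scaling or without replicate 1 of the control. That number was 3 without replicate 3 of the control or replicate 2 of the high dose, and 13 with replicate number as a block.

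Markers of neurons, epidermis and pharynx gave 0 or 1 call, while those of body wall muscle had mostly negative changes. Of 21 neuronal markers 0 were called, with changes between -0.43 and 0.69, and of 12 epidermal markers 0 were called, between -0.79 and 0.47. Among 16 body wall muscle markers 3 fell (18.75%, against 4.64% of all genes), mup-2 by 1.06, unc-15 by 0.96 and pat-10 by 0.78. Of the 16 changes 14 were negative, with a median of -0.42. The number lower was 1 with the authors' scaling, 6 with the low-scale array also left out and 7 with quantile normalization. It was 2 to 5 when single arrays were left out. Of 12 pharyngeal markers 1, pha-4, rose by 0.81 (8.33%, against 4.42% of all genes) and 0 fell. That call was lost with the authors' scaling and when control replicate 1 or 3 or high-dose replicate 1 was left out (adjusted p between 0.0504 and 0.0615), and another probe set of pha-4 gave 0.21 (adjusted p = 0.655). None of the 62 cytosolic ribosomal protein genes was called. Genes of neuronal signals nevertheless included increases: of 23 FMRFamide-like peptide genes 5 rose and 0 fell, and all 23 changes were positive. The largest, flp-18, went from 364, 460 and 292 to 952, 2212 and 1515 (1.87, SE 0.30, adjusted p = 0.00013). Between 2 and 8 of the 23 were called when single arrays were left out. Of 164 nuclear hormone receptors, ligand-regulated transcription factors, 17 rose and 2 fell. The genes nhr-237 and nhr-238 led with 2.94 and 2.85. The number higher was 7 to 9 without replicate 1 of the control, replicate 2 or 3 of the high dose, or with the actin covariate. With quantile normalization it was 24.

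The state at 8 h was set against that at 4 h, each with its own control. At 4 h, 3.28% of genes were higher and 3.07% lower. In the same direction at both times were 561 genes, which is 49.5% of the 1134 called at 8 h and 70.6% of the 795 called at 4 h. The difference between the times was also tested directly: 0% of genes were called higher and 0% lower, while 352 probe sets were higher and 322 lower at an unadjusted p under 0.05. The limma test called 12 probe sets with quantile normalization, 3 with the authors' scaling and the low-scale array left out, 2 with the replicate block, and 0 without replicate 3 of the 4 h control. The 95% intervals of that difference, unadjusted for the number of genes, ran from -2.51 to -1.08 for ilys-5, from 0.58 to 1.71 for rips-1 and from -1.39 to 0.19 for ifc-1. Exposed arrays of rips-1 at 8 h lay below the pseudocount of 51, which limits the size of its change at that time.

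Most genes called between 500 and 1000 mg/L were lower at the higher dose. This contrast does not use the control: 0.12% of genes were higher at 1000 mg/L and 0.591% lower. Among the 21 SKN-1 targets 0 were called, and their differences ran from -0.72 to 1.07 with a median of -0.02 (95% intervals within -1.43 and 1.68). At 100 mg/L, 15 of the 21 already passed against the control. For gst-4 the log2 changes from the control were 2.48, 2.76 and 2.51 at the low, mid and high dose. For gst-30 they were 3.63, 5.93 and 5.78. Of the detoxification genes, gsto-2 was higher at the high than the mid dose by 1.44 (95% interval 0.77 to 2.11, adjusted p = 0.029), stdh-2 by 1.66 and cyp-43A1 by 0.90.

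Of the 17 intestinal markers, 1 was called lower at 1000 than at 500 mg/L and 0 higher. That gene was act-5. Its log2 differences from the control at the low, mid and high dose were 0.06, -0.77 and -2.58, and the step from mid to high was -1.81 (95% interval -2.29 to -1.34, adjusted p = 0.00012). Other genes, named for the size of their change, included bcf-1, with changes of -0.01, -0.85 and -3.30, and ilys-5, with -0.38, -1.63 and -3.79. The gene pud-3 turned: it stood at 1194, 753 and 528 in controls, 1534, 1947 and 1546 at 500 mg/L and 216, 114 and 68.0 at 1000 mg/L. All mid-dose arrays were thus above and all high-dose arrays below the controls. Its step from mid to high was -3.30 (adjusted p = 2.2e-05).

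**Figure D5:**
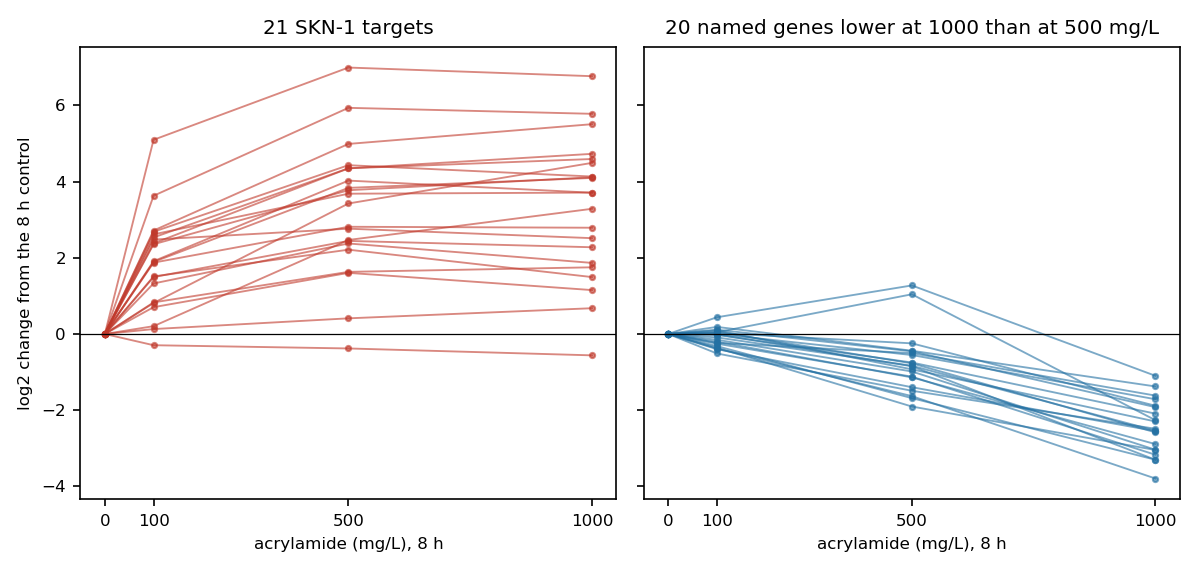
Log2 change from the shared 8 h control at 100, 500 and 1000 mg/L for the 21 SKN-1 targets (left) and for the 20 named genes called lower at 1000 mg/L both than at 500 mg/L and than the control (right); each line is 1 gene, and the right panel was chosen by its last step. On the left gst-30 runs over 3.63, 5.93 and 5.78; on the right ilys-5 runs over -0.38, -1.63 and -3.79.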

How the data were processed

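Affymetrix C. elegans arrays of whole worms were read from the deposited table, whose values are MAS5 signal intensity on a linear scale, per the submitters' processing notes (version not stated). It holds 22625 probe sets. Of these, 77 array controls were left out, and of the other 22548, 20766 carried 1 gene symbol, 887 several and 895 none. No detection calls were used, and the number of arrays limits the precision.

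Each array was centred on the median of 202.9. Probe sets above 131 (the 40th percentile) in at least 3 of the 27 acrylamide arrays were tested, which left 16542 probe sets and 12516 genes. limma 3.58.1 in R 4.3.3 was fitted to log2(signal + 51), the pseudocount being the 20th percentile, over 9 groups with 18 residual degrees of freedom, and p values were adjusted by Benjamini-Hochberg at 0.05. The low-scale array is replicate 1 of the control at 0 h. The fit was tested on simulated data.

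Each gene was read by its probe set of highest mean signal, with cross-hybridization suffixes only where it had no other. Named were the 14 largest increases and 14 largest decreases among called genes whose groups did not overlap, up to 5 called genes per list, up to 6 per direction for the time and dose contrasts, and fixed genes. Others, such as falling transferases and uncalled list members, were chosen after their values were seen. Members and lists were chosen with earlier results of these data known. Alternatives varied scaling, pseudocount, filter, variance trend, groups fitted, replicate block, actin covariate and single arrays.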

Additional observations from a re-analysis of the deposited data

How the results depend on the processing

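Among 190 named genes, 182 were called, of which 126 kept their call in all of the settings run, 56 lost it in at least 1 and 0 reversed. For the high dose at 8 h, 1450 probe sets were called, and 941 to 1261 when single arrays were left out; the number higher was then 450 to 731 and the number lower 451 to 661. Quantile normalization gave 1093 higher, the authors' scaling without the low-scale array (an alternative chosen after seeing the data) 1049 higher, the authors' scaling 362 lower and the actin covariate 502 lower. For 8 h less 4 h, the count of 0 became 12 with quantile normalization, 3 with the authors' scaling without the low-scale array and 2 with the replicate block, and was 0 to 1 when single arrays were left out. For high against mid dose, 121 probe sets became 37 with the authors' scaling, 213 with quantile normalization, 205 with the replicate block, 197 with the authors' scaling without the low-scale array and 60 with only the compared groups fitted, and 55 to 116 when single arrays were left out. The cause was not tested. The replicate block gave 1952 probe sets at 8 h, 849 higher and 1103 lower; deviations of same-numbered high-dose and control arrays correlated at 0.302, -0.0509 and 0.214 at 8 h and at 0.521, 0.0942 and 0.361 at 4 h, those of high and mid dose at 0.349, 0.143 and 0.067, and those of mid dose and control at 0.42, 0.324 and 0.227. In each contrast reported with the high dose 1 pair fell under 0.1, while every pair of mid dose and control lay above it. Whether the numbers pair the samples was left undecided, and the main fit took them as unpaired.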

Other observations

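Other gene families, chosen after their values were seen and so given as a description, also held called genes at 8 h. Of 48 neuropeptide-like (nlp) genes 15 were called higher and 0 lower, and 7 to 16 were higher when single arrays were left out. The gene nlp-9 read 261, 334 and 363 in controls and 1112, 1088 and 922 in exposed worms, a log2 change of 1.57. Of 18 subunits of the vacuolar proton pump, which acidifies lysosomes, 7 were called lower (2 with the authors' scaling, 3 to 5 when single arrays were left out), and all 18 changes were negative, with a median of -0.64. The 4 genes of the translocon-associated protein complex, which assists protein entry into the endoplasmic reticulum, were all called lower, with a median of -1.16, and 2 to 4 were called when single arrays were left out. Of 7 protist-type lysozyme genes (lys) 3 were called lower, lys-6 by 2.05, lys-2 by 1.77 and lys-1 by 1.18. Of 4 acid alpha-glucosidase-related genes tested 2 were called lower, aagr-1 and aagr-2, with changes of -2.44 and -2.19. The pump subunit gene vha-6 counts both here and among the intestinal markers.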
